A study of Homo sapiens with 6 samples.

Results

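The regions that touch the TBXT promoter in H460 cells were compared with those that touch it in H358 cells. The study listed putative cis-regulatory elements (pCREs), which are short restriction fragments called as in contact with the promoter, for each cell line. Members were all rows of the H460 list and all rows of the H358 list, matched on identical start and end. This gave 987 distinct pCREs out of 1201 in all lists of the series. The H460 list held 760 and the H358 list held 729, of which 502 were in both, 258 were in H460 without H358 and 227 were in H358 without H460. The A549 list, from the third line of the study, played no part in these classes. The study's text gives the totals of the H358 and A549 lists in exchanged order relative to the deposited lists, whereas its diagram of overlaps by line has them as deposited. H358 below means the list deposited and labeled as H358.

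Contacts were measured by 4C-seq, in which crosslinked chromatin is cut with NlaIII, ligated, cut again with DpnII and amplified outward from a chosen site, the viewpoint. H460 is an established large cell carcinoma line from a pleural effusion that the study describes as expressing TBXT, and H358 is an established bronchioalveolar carcinoma line that it describes as not expressing it. Both were grown untreated in RPMI 1640 medium, and 2 biological replicate libraries were made from each. The authors deposited 1 list per line that pools both replicates and holds positions without a score, so depth is unknown here, no spread between replicates can be given and no difference between the lines was tested. Each state of TBXT was represented by a single line, so that TBXT expression and any other difference between H460 and H358 cannot be told apart. The labels and lists hold no expression values, so that the TBXT state of each line is as the study describes it and was not checked.

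TBXT encodes brachyury, a T-box transcription factor of the early mesoderm and the notochord that is silent in most adult tissues. It is the defining marker of chordoma, and in carcinoma it has been linked to a shift from epithelial to mesenchymal features. Enhancers act on a promoter through chromatin loops that bring distant DNA close to it, commonly within domains bounded by the protein CTCF. A 4C-seq contact records nearness to the promoter and does not by itself show that the region regulates it.

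The viewpoint lies outside the TBXT transcript, 510 bp upstream of the annotated TBXT start at chr6:166168700 (hg38), and TBXT is read from the minus strand. The forward primer ends on the NlaIII site at chr6:166169210-166169213. The stretch around it is shown since every distance below is counted from it, in plus-strand orientation with the forward primer site in capitals and chr6:166169121-166169240 as its position. The reverse primer site lies in the untranslated part of exon 1 of TBXT at chr6:166168612-166168632 and is given in capitals from the minus strand.
viewpoint: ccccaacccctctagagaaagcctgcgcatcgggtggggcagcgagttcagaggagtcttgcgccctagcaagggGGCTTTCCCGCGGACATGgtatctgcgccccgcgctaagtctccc
reverse primer site: TTATTTCCGTCCATTTCCCTC

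A pCRE is the piece of DNA around 1 NlaIII site, out to the middle of the fragment on either side, called a tile below. To show what was compared, the first noncoding pCRE of 100 to 300 bp in the longest run of each class is printed from the plus strand, with the NlaIII site CATG and any DpnII site GATC in capitals. The one in both lists is 135 bp long and lies in MPC1 at chr6:166375264-166375398. The one in H460 without H358 is 278 bp long and lies in RPS6KA2 intron 1 at chr6:166547780-166548057. The one in H358 without H460 is 142 bp long and lies in the RPS6KA2 gene, beyond the canonical transcript, at chr6:166639287-166639428. Only the H460 piece has a DpnII site of its own.
both lists: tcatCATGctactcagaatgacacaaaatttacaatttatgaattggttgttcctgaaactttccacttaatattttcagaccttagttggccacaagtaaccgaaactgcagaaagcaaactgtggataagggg
H460 without H358: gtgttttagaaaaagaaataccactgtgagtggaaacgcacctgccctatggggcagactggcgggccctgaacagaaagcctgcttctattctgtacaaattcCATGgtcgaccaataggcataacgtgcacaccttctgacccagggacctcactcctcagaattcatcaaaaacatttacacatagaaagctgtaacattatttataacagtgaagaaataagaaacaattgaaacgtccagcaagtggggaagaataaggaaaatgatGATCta
H358 without H460: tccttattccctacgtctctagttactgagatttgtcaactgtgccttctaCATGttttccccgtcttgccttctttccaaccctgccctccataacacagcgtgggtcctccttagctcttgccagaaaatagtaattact

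The 2 lines shared their contacts close to the promoter and toward PRR18, SFT2D1 and MPC1, and parted downstream of TBXT, from about 50 kb out through PDE10A, and within RPS6KA2. The H460 list took 7.79% of the 9750 tiles within 1 Mb of the viewpoint, and the H358 list took 7.48%. The 502 pCREs in both lists were 50.9% of the 987 in either (95% Wilson interval 47.7 to 54.0), 66.1% of the H460 list and 68.9% of the H358 list. Intervals cover counting error only and are too narrow, since the authors smoothed the reads over 30 fragments and neighboring calls depend on each other. All differences below are descriptions of these lists.

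**Figure D1:**
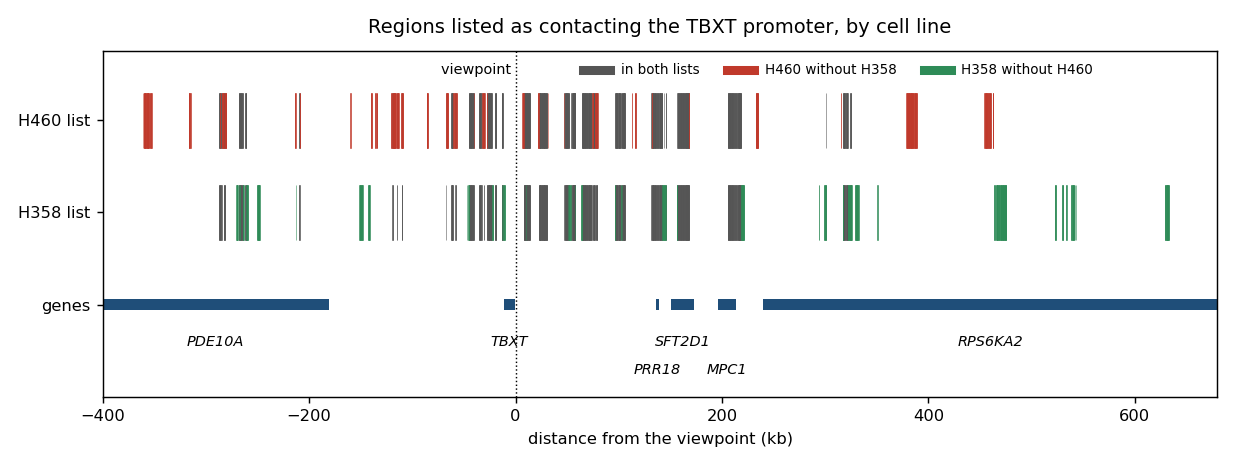
Position of each pCRE of the H460 list (upper row) and of the H358 list (lower row) against the distance from the viewpoint in kb, with PDE10A to the left and RPS6KA2 to the right. Gray marks the 502 pCREs in both lists, red the 258 in H460 without H358 and green the 227 in H358 without H460. Most of the pCREs listed from the viewpoint to MPC1 are gray, with unlisted gaps between them. The far ends are red in H460 on both sides, green in H358 on the RPS6KA2 side and gray in H358 on the PDE10A side.

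Distances carry a minus sign on the PDE10A side, which is the downstream side of TBXT, and no sign on the RPS6KA2 side, which is upstream. The pCREs in both lists lay at a median of 78.1 kb from the viewpoint, those in H460 without H358 at 234 kb and those in H358 without H460 at 301 kb. With each run counted once, the medians were 99.3, 115 and 265 kb, which put the first 2 classes closer together. Without its longest run, the class in H460 without H358 had a median of 159.9 kb. Within 0.2 Mb (near-cis) lay 396 of the shared pCREs, 112 of those in H460 without H358 and 58 of those in H358 without H460. Between 0.2 and 0.5 Mb (medium-cis) the counts were 106, 146 and 129. Beyond 0.5 Mb (far-cis) lay 40 pCREs, all of them in H358 without H460.

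The sides were unequal. Of the shared pCREs, 24.3% lay on the PDE10A side (interval 20.8 to 28.2), against 54.7% of those in H460 without H358 (48.6 to 60.6) and 26.4% of those in H358 without H460 (21.1 to 32.5). The H460 list had 263 of 760 pCREs there and the H358 list 182 of 729. Without its longest run, which lies in RPS6KA2, the class in H460 without H358 had 65.0% on the PDE10A side. With each run counted once, 44.2% of shared runs, 56.0% of those in H460 without H358 and 29.2% of those in H358 without H460 lay there. The contrast between the first 2 classes was thus smaller in runs than in pCREs. The shared class and H358 without H460 were close per pCRE, and per run they lay apart with their order turned.

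Distance bands showed where on each side the lists parted. On the RPS6KA2 side, 86.5% of the pCREs in either list were shared within 50 kb, 81.0% from 50 to 100 kb and 81.1% from 100 to 200 kb. The share was 60.7% from 200 to 300 kb and 18.4% from 300 to 400 kb, and no pCRE was shared beyond that. In the band from 300 to 400 kb the lists were close in number, with 61 pCREs in H460 and 55 in H358, and differed in place.

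On the PDE10A side the lists were alike within 50 kb only, with 74 pCREs in H460, 77 in H358 and 77.6% of the union shared. From 50 to 100 kb, H460 had 40 pCREs and H358 had 14, all of which were among the 40. From 100 to 200 kb the numbers were 51 and 25, with 8 shared. From 200 to 300 kb they were 59 and 66, with 34 shared, and from 300 to 400 kb H460 had 39 and H358 had 0 of 453 tiles. Neither line had a pCRE farther out on this side.

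**Figure D2:**
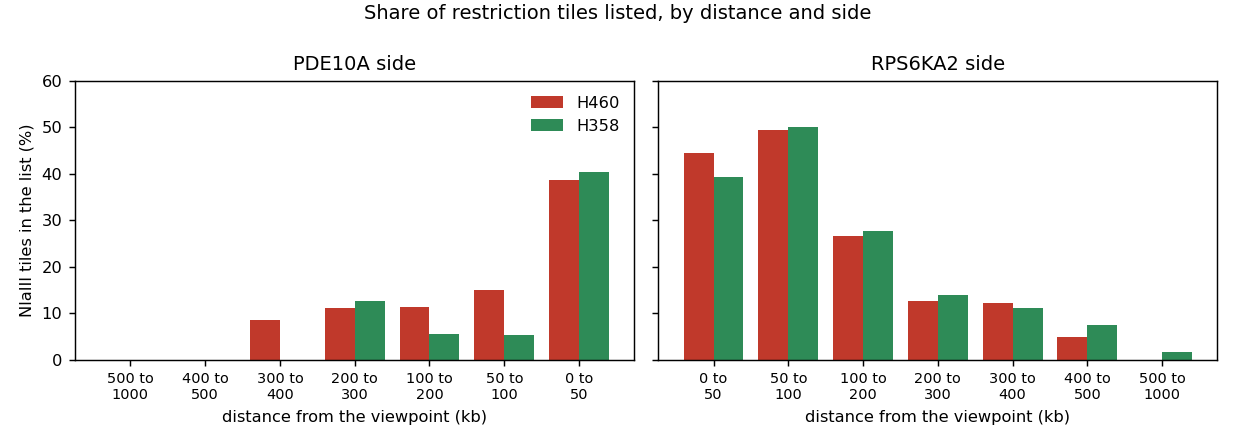
Percent of the NlaIII tiles in each distance band that are in the H460 list (red) and in the H358 list (green), with the PDE10A side in the left panel and the RPS6KA2 side in the right panel; bands differ in width. On the PDE10A side the H460 bars exceed the H358 bars from 50 to 200 kb, at 15.0% against 5.24% and 11.3% against 5.53%, and the outermost bars are H460 alone at 300 to 400 kb on the left and H358 alone at 500 to 1000 kb on the right.

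The farthest H460 pCREs were at -361 kb in PDE10A (chr6:165807912-165808200) and at 463 kb in RPS6KA2 (chr6:166632157-166632221). Those of H358 were at -287 kb in PDE10A (chr6:165882204-165882214) and at 633 kb in RPS6KA2 (chr6:166801895-166802113). H460 therefore reached farther toward PDE10A and H358 farther into RPS6KA2. Of these 4 pCREs, only the H358 one in PDE10A was in both lists.

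Close to the viewpoint, the authors had removed 5 kb on either side. The nearest H460 pCRE was at 6.79 kb upstream of TBXT (chr6:166175849-166176143), the innermost of a run of 7 that were in H460 without H358 and led into a shared run. The nearest H358 pCRE was the first of that shared run, at 8.01 kb (chr6:166177110-166177339). On the PDE10A side the nearest pCRE of H358 was at -10.5 kb (chr6:166158597-166158919), inside TBXT, and that of H460 at -12.2 kb (chr6:166156875-166157208).

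TBXT itself, the gene at the viewpoint (ENSG00000164458, chr6:166157656-166168700), had 22 tiles in the window. None was in the H460 list and 3 were in the H358 list. They belonged to a run of 4 in H358 without H460, chr6:166157209-166158919, which reached from beyond the last exon into intron 7 of 8 exons and continued a shared run downstream of the gene. The midpoint of chr6:166158333-166158596 fell in a coding exon.

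Upstream of TBXT, as far as PRR18, was the stretch that held the most shared pCREs. It held 238 pCREs in both lists, 32 in H460 without H358 and 16 in H358 without H460. Of its 661 tiles, 40.8% were in the H460 list and 38.4% in the H358 list, against 7.79% and 7.48% of the window. PRR18 and SFT2D1 had higher shares of their tiles listed. A shared run of 43 pCREs in this stretch, chr6:166191484-166199474 at 26.3 kb, lay outside any gene. The long noncoding RNA gene ENSG00000233365, with 75 tiles, held 44 H460 and 33 H358 pCREs, and all 33 were among the 44.

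PRR18, which encodes a proline-rich protein, had all of its 5 tiles in both lists. Between PRR18 and SFT2D1, a gap of 50 tiles, 17 pCREs were shared and 9 were in H358 without H460. All 9 lay in intron 1 of the noncoding gene ENSG00000287189, at chr6:166311528-166313173 and chr6:166313401-166314596, where H460 had none.

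SFT2D1, a gene for a predicted membrane protein of vesicle transport, held 48 shared pCREs, 3 in H460 without H358 and 5 in H358 without H460. Of its 99 tiles, 51.5% were in the H460 list and 53.5% in the H358 list. Of the 48 shared pCREs, 46 formed a shared run at 162 kb, chr6:166325954-166336856, from intron 5 to intron 1 of the canonical transcript. That run held annotated alternative starts of SFT2D1, and the canonical start at chr6:166342545 was in neither list, with the nearest H460 pCRE 4869 bp and the nearest H358 pCRE 5013 bp away. Between SFT2D1 and MPC1, 0 of 116 tiles were listed in either line.

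MPC1 encodes a subunit of the mitochondrial pyruvate carrier, which brings pyruvate into the mitochondrion. All 28 pCREs in MPC1 were in both lists, at 43.75% of its 64 tiles. The longest shared run, chr6:166374557-166387889 at 212 kb, had 54 pCREs and spanned the MPC1 start and its divergent noncoding neighbor MPC1-DT. H460 stopped at the end of this run, and in H358 the block went on without a break for 16 more pCREs, chr6:166387890-166390781. Farther on, before RPS6KA2, H460 had a run of 14 that H358 lacked, chr6:166401979-166404029 at 234 kb.

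PDE10A, a phosphodiesterase that breaks down cyclic AMP and cyclic GMP (ENSG00000112541, chr6:165327287-165988117), held 34 shared pCREs, 64 in H460 without H358 and 32 in H358 without H460. All of them lay beyond the canonical transcript, in the part of the gene covered by longer transcripts alone. Of the 3161 tiles of PDE10A, 3.10% were in the H460 list and 2.09% in the H358 list, below the 7.79% and 7.48% of the window. The longest PDE10A run in H460 without H358 had 26 pCREs at -358 kb, chr6:165808852-165814435, and the nearest listed stretch of H358 was that at -287 kb. The longest in H358 without H460 had 12 at -249 kb, chr6:165918631-165921249. No annotated PDE10A start had its tile in either list, including the cluster of starts near -181 kb, where the nearest pCRE of either line was more than 20 kb away.

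Between PDE10A and TBXT, 88 pCREs were shared, 77 were in H460 without H358 and 25 in H358 without H460. Of the 801 tiles there, 20.6% were in the H460 list and 14.1% in the H358 list. The noncoding gene ENSG00000231297 accounted for part of these pCREs, with 33 of 61 tiles in H460 and 14 in H358, all 14 shared. Around -118 kb an H460 block of 21 pCREs, chr6:166048752-166053514, met an H358 block of 2, chr6:166049861-166050144. Farther out, H358 had 11 pCREs at -150 kb (chr6:166017835-166021090) and 6 at -142 kb (chr6:166026461-166027808), none of them in H460. Beside these, toward TBXT, H460 had 4 pCREs at -139 kb (chr6:166029223-166030302), 3 at -136 kb and 4 at -134.5 kb that H358 lacked.

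**Figure D3:**
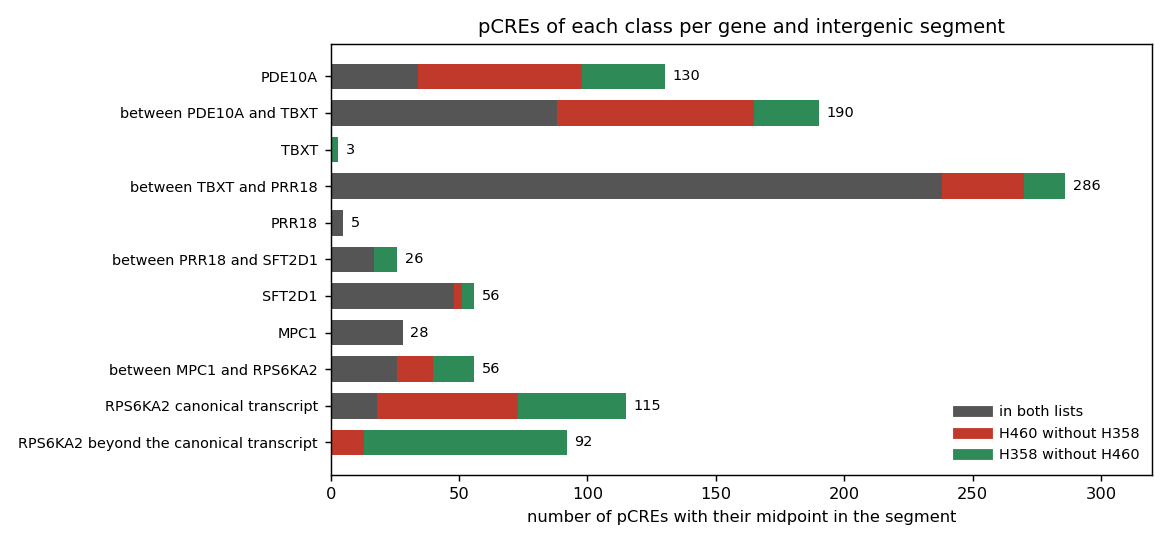
Number of pCREs whose midpoint lies in each gene or in the gap between genes, from PDE10A at the top to RPS6KA2 at the bottom, split into both lists (gray), H460 without H358 (red) and H358 without H460 (green), with the total at the end of each bar. The bars from TBXT to MPC1 are mostly gray apart from TBXT itself, and the 92 pCREs of RPS6KA2 beyond its canonical transcript include none that is in both lists.

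RPS6KA2, a kinase of the ribosomal S6 kinase family that acts downstream of ERK signaling, had the lowest share of pCREs in common of the protein-coding genes with contacts in both lines. Of its 207 pCREs, 18 were in both lists, or 8.70%, 68 in H460 without H358 and 121 in H358 without H460. Of its 2495 tiles, 3.45% were in the H460 list and 5.57% in the H358 list, below the 7.79% and 7.48% of the window. The share in common fell with distance on this side, to 18.4% from 300 to 400 kb, and gene and distance were not separated. The 18 shared ones lay in the canonical transcript, 13 of them in a run at exons 9 and 10, chr6:166486722-166490997 at 320 kb. On both ends of this run H358 went on and H460 did not.

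The longest run in H460 without H358 lay in RPS6KA2 intron 1, with 41 pCREs at 384 kb, chr6:166547780-166558507. H358 had 14 at 331 kb that H460 lacked, chr6:166498494-166501462, from intron 8 to intron 6. Among these, chr6:166498494-166498544 and chr6:166498545-166498617 had their midpoints in a coding exon.

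Around the RPS6KA2 start, the lists lay side by side without sharing a tile. H460 had 25 pCREs between chr6:166623089 and chr6:166632221, from intron 1 across exon 1 and the start at chr6:166627251 to 4970 bp upstream of it. H358 had 39 between chr6:166632998 and chr6:166644721, from 5747 to 17470 bp upstream. Between the last H460 pCRE and the first H358 pCRE lay 776 bp. The 40 far-cis pCREs of H358 also lay in RPS6KA2, between 523 and 633 kb, and the longest run among them had 14 pCREs at 632 kb, chr6:166799700-166802113.

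**Figure D4:**
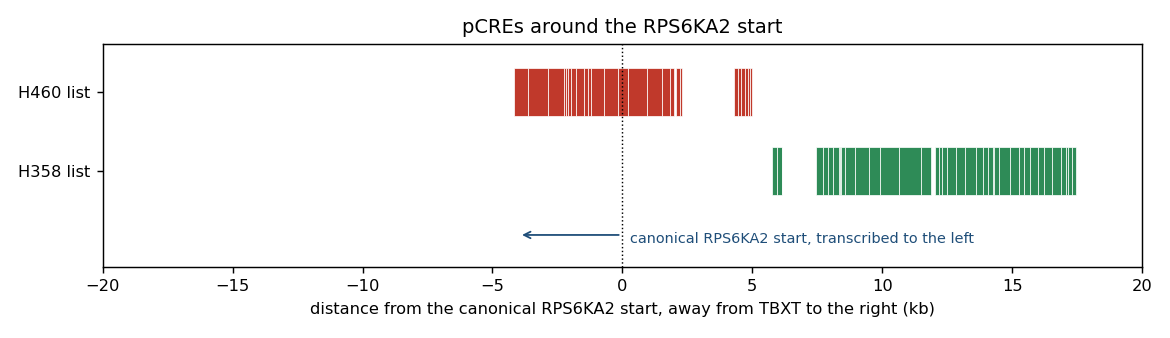
pCREs of H460 (red, 25) and H358 (green, 39) against the distance in kb from the canonical RPS6KA2 start, with TBXT to the left. The red boxes cover the start and end 4970 bp upstream of it, and the green boxes begin 5747 bp upstream.

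The promoters annotated in the window, counted from 1000 bp before to 100 bp after each annotated start, held 30 shared pCREs (5.98%), 4 in H460 without H358 (1.55%) and 0 in H358 without H460. Of all tiles, 386 (3.96%) were at a promoter. The shared ones were at PRR18, at alternative starts of SFT2D1, at MPC1 and MPC1-DT, and at the noncoding genes ENSG00000233365 and ENSG00000287189. The 4 of H460 adjoined each other at the RPS6KA2 promoter, chr6:166627074-166629080. With promoters widened to 2000 bp upstream and 500 bp downstream, the shared class had 50, H460 without H358 had 8 and H358 without H460 had 5. No share of all tiles was computed for that width.

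RPS6KA2 was the one protein-coding gene with annotated starts listed for H460 and not for H358, at chr6:166627251, chr6:166627522 and chr6:166627972. The first is the canonical start. The 220 bases upstream of it, chr6:166627252-166627471, are therefore shown from the minus strand, ending at the base before the start. Capitals mark the T-box half-site AGGTGT, which occurs once in it. This stretch was chosen after its values were seen. Among 35116 RefSeq promoters (GRCh38.p14), 8.37% held AGGTGT on either strand in the same 220 bases, and a match is no evidence of binding.
upstream of the canonical RPS6KA2 start: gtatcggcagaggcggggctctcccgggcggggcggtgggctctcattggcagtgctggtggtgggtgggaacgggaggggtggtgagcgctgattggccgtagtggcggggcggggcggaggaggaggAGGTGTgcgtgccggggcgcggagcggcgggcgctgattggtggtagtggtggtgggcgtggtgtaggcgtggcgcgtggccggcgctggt

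Coding sequence was touched by few pCREs. Of the shared pCREs, 12 overlapped a coding exon of a protein-coding gene, in PRR18, SFT2D1, MPC1 and RPS6KA2. In H460 without H358 the number was 1, at RPS6KA2 exon 1 (chr6:166626555-166627073), and in H358 without H460 it was 6, of which 2 lay in TBXT and 4 in RPS6KA2. Among all tiles, 1.67% overlapped a coding exon, against 2.39% of the shared pCREs, 0.388% of those in H460 without H358 and 2.64% of those in H358 without H460.

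A pCRE in 1 list could lie in a run that adjoined a shared pCRE, or in a run with no shared pCRE beside it. Of the 258 pCREs in H460 without H358, 160 (62.0%) lay in 20 runs with no shared pCRE beside them. Of the 227 in H358 without H460, 136 (59.9%) lay in 22 such runs. The remaining 98 of H460 and 91 of H358 lay in runs that adjoined a shared pCRE on at least 1 end. A run with no shared pCRE beside it could still lie near a contact of the other line. The H460 run chr6:165955183-165956621 adjoined the H358 pCRE chr6:165956622-165956740. The H460 run chr6:166200261-166200768 lay close to the shared run of 43, chr6:166191484-166199474. The 62.0% and 59.9% are therefore not shares of separate contacts.

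Counted in tiles, the median step from a pCRE in H460 without H358 to the nearest H358 pCRE was 7 on the PDE10A side and 59 on the RPS6KA2 side. In the other direction it was 9.5 and 20. The authors' running mean spanned 30 fragments, and 116 pCREs of H460 without H358 (45.0%) and 90 of H358 without H460 (39.6%) lay more than 30 tiles from the other list. The other 142 and 137 lay within that reach.

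Pieces no more than 40 bp apart were joined into blocks, which gave 55 in H460 and 60 in H358. Of these, 35 H460 blocks overlapped a block of H358, and 20 did not; of the H358 blocks, 22 met no H460 block. Where 1 block of a line met 1 block of the other, which was the case for 21 pairs, 2 pairs had the same start and end. In 7 pairs the H460 block held the H358 block, and 6 of the 7 lay on the PDE10A side. In 9 the H358 block held the H460 block, and 7 of the 9 lay on the RPS6KA2 side.

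**Figure D5:**
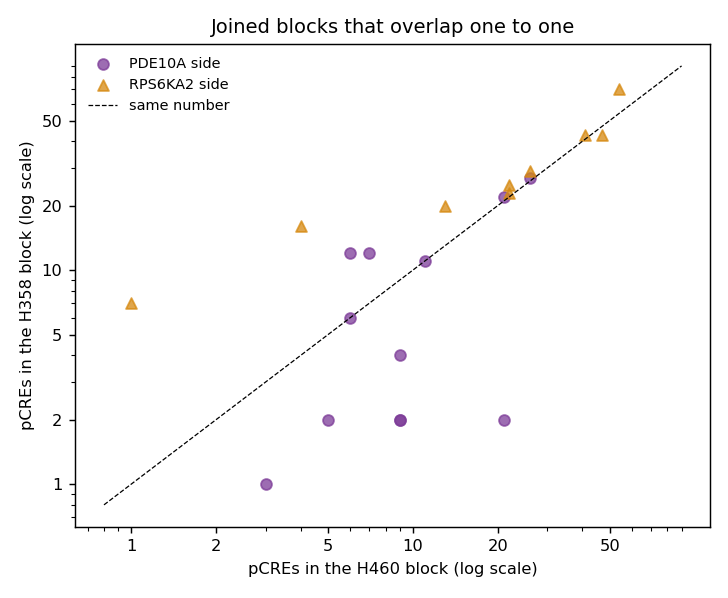
Number of pCREs in the H358 block against that in the H460 block for the 21 pairs of blocks that overlap one to one, on log axes, with circles for the PDE10A side, triangles for the RPS6KA2 side and a dashed line where both numbers are the same. Most points near the line are large blocks. The pairs with clearly fewer pCREs in H358 are circles, such as 21 against 2, and the pair with the most pCREs is the one at MPC1, 54 against 70.

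The ends of these 21 pairs were compared in tiles. The pairs were taken because they overlap, so that nearness of their ends is in part set by that choice. At the end facing the viewpoint the H460 and H358 blocks differed by a median of 3 tiles and at most 16, with H460 reaching further in 8 pairs, H358 in 10 and neither in 3. At the far end the median was 1 tile and the highest again 16, with H460 further in 6, H358 in 7 and neither in 8. The 16 tiles at the far end were the added H358 stretch at MPC1.

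In sequence the classes differed little from each other. The median length was 189 bp for shared pCREs, 180 bp for H460 without H358 and 208 bp for H358 without H460, against 163 bp over all tiles. The median GC content was 44.1%, 43.5% and 46.4%, against 43.6%. A DpnII site GATC occurred in 39.0%, 43.4% and 40.1% of the classes and in 33.5% of all tiles, which are shorter.

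Both strands were searched for CCANNAGGG, part of the CTCF consensus, and for AGGTGT, the T-box half-site that brachyury is known to bind. The first occurred in 2.39% of shared pCREs, 3.49% of H460 without H358 and 4.41% of H358 without H460, against 2.69% of all tiles. These shares stood for 12, 9 and 10 pCREs. The second occurred in 13.7%, 12.8% and 13.2%, against 11.3% of the shorter tiles of the whole window. Per kb of sequence, AGGTGT matched 0.642, 0.628 and 0.703 times in the classes and 0.635 times over all tiles. No match of one motif overlapped a match of the other. Of the 3 pCREs printed above, the one in H460 without H358 held AGGTGT once, on the minus strand, and none held CCANNAGGG.

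As a further reference, the list of A549, the other line that the study describes as lacking TBXT expression, held 400 of the 502 shared pCREs. It held 90 of the 258 in H460 without H358 and 55 of the 227 in H358 without H460. The run of 26 in PDE10A had 22 of its pCREs in the A549 list, whereas the run of 41 in RPS6KA2 intron 1 and the 25 H460 pCREs around the RPS6KA2 start had 0. The 39 H358 pCREs upstream of the RPS6KA2 start and the 40 far-cis pCREs of H358 also had 0. No share of all tiles was computed for the A549 list, so these counts have no background.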

How the data were processed

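4C-seq libraries with the TBXT promoter as viewpoint were made from H460 and H358 cells, with 2 replicates per line. The authors trimmed reads to 30 bp, aligned them with Bowtie 1.2.2 to NlaIII and DpnII fragments of hg38, left out the 5 kb either side of the viewpoint and averaged over 30 neighboring fragments. They called contacts from a monotonic fit in peakC together with local coverage, kept those seen in both replicates, and deposited start and end positions, a unit other than counts. Their methods describe merging fragments no more than 40 bp apart into pCREs. Many rows of the deposited lists abut, so that a pCRE here is 1 unmerged row. The study names chr6:166547780-166558507 as 1 pCRE, and that stretch held 41 here. The sample records and the methods give different fixation and annealing conditions. The calls required in both replicates hide how near to a call an unlisted fragment came, and the coverage criterion is relative within each line.

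Header lines were dropped and starts shifted to count from 1. The build was checked by tiling hg38 at NlaIII sites: all 1059 distinct boundaries of both lists were tile boundaries. Sites under 6 bp apart shared a tile, and the background was the 9750 tiles with midpoints between 5 kb and 1 Mb of the viewpoint. Genes were from GENCODE 44, and a pCRE was placed by its midpoint. Runs are neighboring pCREs of 1 class at most 40 bp apart. Shares have 95% Wilson intervals. Named regions were the genes holding pCREs, the 3 longest runs of each class, the farthest pCREs, and pCREs of 1 list at promoters or with midpoints in coding exons; other runs were named after their values were seen. The members and lists were chosen with earlier results of these data known. Alternatives changed the matching, the unit, filters, distance measure and promoter size. Python 3.11.15 was used. Tiling, classes and runs were tested on simulated data and the Wilson interval on a known case, and the other steps were not tested in this way.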

Additional observations from a re-analysis of the deposited data

How the results depend on the processing

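Matching by any overlap or within 10 bp gave identical classes. Since all pieces are tiles that do not overlap, overlap matching could give no other result, and matching within 10 bp hardly could. Joined at 40 bp, 45.5% of blocks were in both lists by any overlap, with the overlapping blocks counted in H460. These were 35 H460 blocks with an overlap, 20 H460 blocks without one and 22 H358 blocks without one. Joined at 1000 bp, the values were 47.4%, 27, 14 and 16. Per run, 44.2% of shared runs lay on the PDE10A side, and the median distance was 115 kb for H460 without H358 and 265 kb for H358 without H460. Without the longest run of its class, the median was 68.1 kb for shared pCREs and 159.9 kb for H460 without H358, of which 65.0% then lay on the PDE10A side. Within 0.5 Mb, the median for H358 without H460 was 264 kb. Promoters of 600 bp gave 18 shared pCREs, and promoters of 2000 bp with 500 bp downstream gave 50 shared, 8 in H460 without H358 and 5 in H358 without H460. No share of all tiles was computed for these promoter sizes. The other 70 values, which include those of matching by overlap or within 10 bp, were counted as the same. The limit for this was not a fixed distance or percent. Among the 70 was the shared median distance, which was 99.3 kb with each run counted once, against 78.1 kb per pCRE. No class order of median distance turned. In share on the PDE10A side, the order of the shared class and H358 without H460 did turn per run. The cause of each change was not tested. No paired analysis was possible because each list pools both replicates. Library depth is unknown, so an unlisted tile cannot be read as an absent contact.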
